A study of Homo sapiens with 6 samples.

Results

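The 10 genes described here are 9 chemokine ligands (CCL26, CXCL12, CXCL1, CXCL2, CXCL3, CXCL8, CCL2, CXCL16 and CX3CL1) and ACKR3, an atypical receptor that takes up CXCL12. They are 10 of the 56982 gene identifiers listed in both deposited expression tables, and 6 of them passed the filter on low values that left 15001 genes for testing. CCL26 and ACKR3 were chosen by their FPKM in these same libraries, which was higher in the edited clone, so their difference between genotypes is described below without a test. The other 8 genes belong to the chemokine family by name.

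The cells were U2OS, an established human osteosarcoma line, either wild type or the clone G3C2, in which ZFP36L1 had been edited with CRISPR/Cas9 and which the labels call deficient in ZFP36L1. Both kinds of cells were collected in log phase at 65% to 75% confluency, and poly(A) RNA was sequenced from 3 libraries of each, labelled replicates 1, b and c. No other treatment is given in the labels. All 3 edited libraries came from 1 clone, so what the edit does and what is particular to that clone cannot be told apart. Values were deposited as FPKM (fragments per kilobase of transcript, scaled to library depth). A first table holds replicate 1 and a second table the other replicates.

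Chemokines are small secreted proteins that attract cells along a concentration gradient through receptors coupled to G proteins. CXCL1, CXCL2, CXCL3 and CXCL8 draw neutrophils, CCL2 draws monocytes, CCL26 (eotaxin-3) draws eosinophils, and CXCL16 and CX3CL1 are made as membrane-anchored proteins that proteases can release. ACKR3 signals little through G proteins and instead binds arrestins and carries CXCL12 and CXCL11 into the cell. ZFP36L1 is an RNA-binding protein that attaches to AU-rich elements near the 3′ end of mRNAs and speeds their decay, and transcripts of several inflammatory chemokines carry such elements.

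The tables were scaled separately, so levels were compared within a table. FPKM summed over all identifiers to 705014 and 712633 for the first table's libraries and to 235190 to 319282 for those of the second. About 22600000 to 29000000 reads per library could be recovered for the second table from the steps between its low values. ZFP36L1 mRNA itself was 165.2, 57.1 and 127.5 FPKM in wild-type replicates 1, b and c and 238.1, 105.1 and 82.4 FPKM in the clone. It was higher in the clone in replicates 1 and b and lower in c, and where in the gene the edit lies is not stated in the labels, so the transcript level checks no genotype label. The number of genes called depended on which pair was left out. limma called 448 genes higher and 457 lower without the c pair and 60 and 151 without the b pair. It called 0 and 0 without the pair of replicate 1, against 3 and 4 with all libraries. Without b or c each table kept 1 pair, so the term for table acted as a pair term, whereas without replicate 1 no such term was left. The designs thus differed, and the counts cannot show whether the genotype difference was alike in all pairs. Of 10 mesenchymal and bone tumour markers 7 passed the filter, with SPARC at 190.9 to 908.1 FPKM and VIM at 128.1 to 500.2 FPKM, whereas COL1A2 stayed at or under 0.521 FPKM and NT5E at or under 0.0271 FPKM. Of 12 leukocyte markers only NCAM1 passed, which is no marker of leukocytes alone, and CD3E, AIF1 and TYROBP were listed at 0 in all 6 libraries.

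Of the 6 members above the filter, CXCL8, CCL2, CXCL16 and CX3CL1 were not chosen by this contrast. None of these 4 passed an adjusted p of 0.05 in limma's test of all 15001 genes, and CXCL16 alone had an unadjusted p under 0.05. The background was 0.02% of tested genes called higher and 0.0267% called lower. CCL26 and ACKR3 were above wild type with no overlap within each table, as were 14.9% of all tested genes, and CXCL16 was below it with no overlap, as were 14.8%. CCL26 and ACKR3 were also the members higher by at least 2-fold in all 3 replicate pairs on the log2(FPKM + 1) scale, which held for 0.233% of tested genes. No member was lower by that much in all pairs, against 0.32% of tested genes. Since the choice of CCL26 and ACKR3 used this contrast, nothing is read from their counts.

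**Figure D1:**
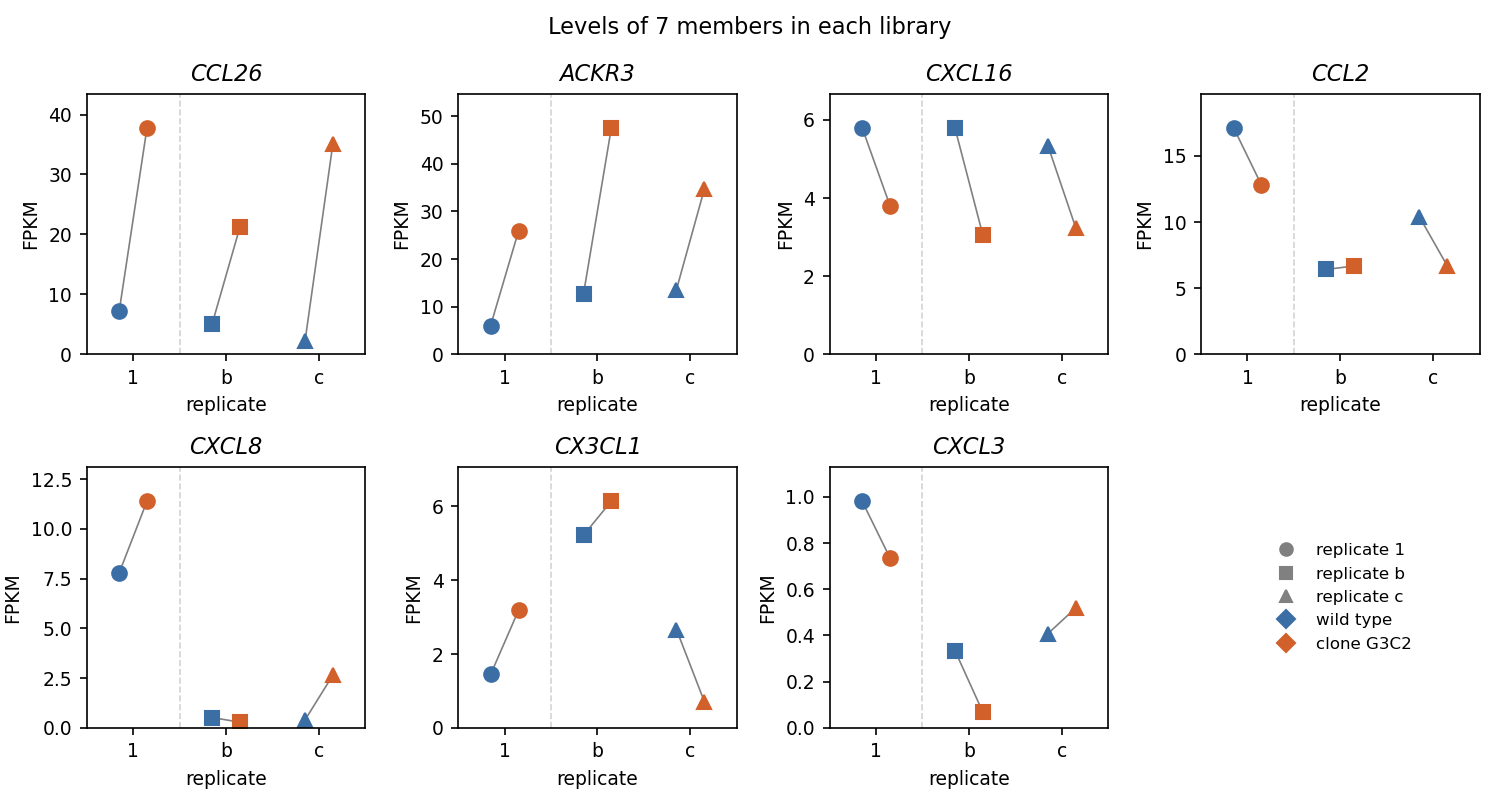
FPKM (vertical axes, starting at 0, 1 panel per gene) of the 7 members with more than 0.1 FPKM in some library, for wild type (blue) and clone G3C2 (orange), by replicate on the horizontal axes; lines join libraries of the same replicate and the dashed line separates the first table from the second. CCL26 and ACKR3 lie higher and CXCL16 lower in the clone in every pair, whereas the direction differs between pairs for CCL2, CXCL8, CX3CL1 and CXCL3.

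CCL26, the eosinophil attractant that binds CCR3, was the member with the largest difference. CCL26 (ENSG00000006606, chromosome 7, 75769533 to 75789896 of GRCh38, minus strand) was at 7.21, 5.06 and 2.23 FPKM in wild-type replicates 1, b and c. In the clone it was at 37.8, 21.3 and 35.2 FPKM. The clone was higher in every pair, by 5.25-fold, 4.20-fold and 15.8-fold in FPKM, and the largest ratio came from the lowest wild-type library. That library, replicate c, held 40 recovered reads of CCL26 (95% exact Poisson interval 28.6 to 54.5) and replicate b held 106 (86.8 to 128.2), against 560 and 398 in the matching clone libraries. These intervals cover counting error only. The 2.27-fold gap between the wild-type libraries of the second table was thus wider than counting error, and it was 1.65-fold between the clone libraries. On log2(FPKM + 1) the fitted difference was 2.53 with a standard error of 0.31, given here as a description. Among the 12152 tested protein-coding genes, CCL26 stood above 22.8% to 42.5% of genes in the wild-type libraries of the second table and above 81.6% to 87.2% in the clone. In replicate 1 it stood above 26.1% in wild type and 69.8% in the clone.

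CCL26 lies beside CCL24 (eotaxin-2), another CCR3 ligand, which runs from 75811665 to 75823356 on the same strand. CCL24 was at 1.83, 12.9 and 3.51 FPKM in wild type and 13.2, 22.4 and 2.66 FPKM in the clone. It was higher in the clone in replicates 1 and b and lower in c, and it did not pass limma's test (log2 difference 0.92, standard error 0.84, adjusted p = 0.655). CCL26 and CCL24 therefore parted in replicate c, where CCL26 had its largest difference. Of the 11 other protein-coding genes within 500 kb of CCL26, 9 were tested, and 2 were higher and 2 lower in all pairs. The background for all tested genes was 17.8% higher and 18.6% lower in all pairs. RHBDD2 and POR were the higher neighbours, with log2 differences of 0.30 and 0.34, and HIP1 and TMEM120A the lower ones, at -0.30 and -0.23. None passed limma's test (adjusted p = 0.525 to 0.893 over the 9 genes).

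IL-4 and IL-13 are the classical inducers of CCL26, acting through IL4R, IL13RA1 and the transcription factor STAT6. IL13 was listed at 0 in all 6 libraries and IL4 stayed at or under 0.184 FPKM. Of 11 listed genes of this pathway 7 were tested and none passed limma's test in either direction, with 1 lower at an unadjusted p under 0.05. At that level 1115 of all 15001 tested genes were lower. STAT6 was at 74.5, 20.5 and 24.1 FPKM in wild type and 73.9, 22.8 and 20.1 FPKM in the clone (log2 difference -0.04, standard error 0.15, adjusted p = 0.927). IL4R, named after its values were seen, was lower in all 3 pairs, at 11.9, 2.77 and 3.64 FPKM against 8.50, 1.90 and 2.32 FPKM, but missed the threshold (-0.44, standard error 0.15, adjusted p = 0.294). SOCS1 and IL13RA2, also named after their values were seen, were higher in all pairs. SOCS1 did not pass limma's test (0.49, standard error 0.34, adjusted p = 0.561). IL13RA2, below the filter, was at 0.0924, 0.104 and 0.0484 FPKM in wild type and 0.426, 0.441 and 0.218 FPKM in the clone. The other most abundant genes of the list also did not pass. JAK1, the kinase shared by these receptors, differed by -0.25 (adjusted p = 0.572), IL13RA1 by -0.10 (0.815) and TYK2 by -0.37 (0.468). The list's median log2 difference was -0.10, beside 0.01 over all tested genes. CCR3, the receptor for CCL26, was at or under 0.121 FPKM in every library.

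ACKR3 was the most abundant member in the wild-type libraries of the second table, and no other chemokine receptor exceeded 2.45 FPKM in any library. ACKR3 (ENSG00000144476, chromosome 2, 236567787 to 236582358 of GRCh38, plus strand) was at 6.04, 12.7 and 13.6 FPKM in wild type. In the clone it was at 25.8, 47.6 and 34.7 FPKM. Every clone library was above its wild-type partner, by 4.28-fold, 3.74-fold and 2.55-fold in FPKM, so the smallest ratio was in replicate c, where CCL26 had its largest. Recovered reads in the second table were 852 and 780 in wild type and 2849 and 1766 in the clone. The wild-type libraries of that table were within 1.07-fold of each other and the clone libraries within 1.37-fold. The fitted log2 difference was 1.68 with a standard error of 0.18, again a description. ACKR3 stood above 69.0% and 73.3% of tested protein-coding genes in wild-type replicates b and c and above 93.0% and 87.0% in the clone. In replicate 1 it stood lower, above 23.1% in wild type and 59.7% in the clone. Protein-coding genes within 500 kb of ACKR3 numbered 4, of which AGAP1 (log2 difference 0.47, adjusted p = 0.499) and IQCA1 (0.04, adjusted p = 0.942) were tested, and neither had the same direction in all pairs. Within 5000 kb, 46 were tested, and 17 were higher and 4 lower in all pairs, beside 17.8% and 18.6% of all tested genes. The median difference of these 46 was 0.32, 0.14 and 0.13 in replicates 1, b and c. Over all tested genes it was -0.08, -0.005 and 0.07. Within 5000 kb of CCL26, 10 of 49 tested genes were higher and 7 lower in all pairs. The part of these neighbourhoods in either gene's rise was not tested.

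The ligand and the partner receptor of ACKR3 were near or at 0. CXCL12 (ENSG00000107562, chromosome 10, 44370165 to 44386493, minus strand), the shared ligand of ACKR3 and CXCR4, had 2 and 3 reads in wild-type replicates b and c, which is 0.0111 and 0.0194 FPKM. It was listed at 0 in the other 4 libraries. A count of 0 allows up to 3 reads, or 0.0186 and 0.0219 FPKM in clone replicates b and c, so no difference between genotypes was detectable at this depth. CXCR4, the signalling receptor for CXCL12, had 1 read in wild-type replicate b and was listed at 0 elsewhere. CXCL11, the other ligand of ACKR3, stayed at or under 0.0754 FPKM. Zeros in these tables are listed values only, since TUBB, a tubulin that dividing cells use, was also listed at 0 in the second table, as 1 of 20 housekeeping genes looked up.

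Arrestins and G-protein receptor kinases, which act on chemokine receptors after ligand binding, were all expressed. All 15 genes of that list, which also holds G-protein subunits and their regulators, were tested and none passed limma's test. At an unadjusted p under 0.05, 2 were higher and 2 lower. Over all 15001 tested genes, 926 (CCL26 and ACKR3 left out) were higher and 1115 lower at that level. The list had 5 higher and 5 lower in all pairs, beside 17.8% and 18.6% of all tested genes. Its median log2 difference was -0.11. The most abundant were the G-protein subunits GNB2 (log2 difference 0.39, adjusted p = 0.466), GNG5 (0.25, 0.685), GNB1 (0.40, 0.339) and GNAI2 (0.35, 0.450). GNAI1, a G-protein subunit named after its values were seen, was higher in all pairs without passing limma's test (0.73, standard error 0.15, adjusted p = 0.154). ARRB2 and ARRB1, the β-arrestins that ACKR3 recruits, were also named after their values were seen. ARRB1 was at 10.7, 2.29 and 1.97 FPKM in wild type and 7.57, 1.64 and 0.996 FPKM in the clone, lower in all pairs without passing the test (-0.44, adjusted p = 0.316). ARRB2 was lower in replicates 1 and b and higher in c (-0.21, adjusted p = 0.707).

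Among the neutrophil attractants, CXCL8 was detected in every library, CXCL3 at low levels, and CXCL1 and CXCL2 in none. All 4 genes lie in the CXC cluster of chromosome 4, and their sequences share features that the choice of genes did not use. In the RefSeq promoter table (GRCh38.p14, 250 bases before to 50 after each gene's start), 6 of the 10 members had an entry. An NF-κB-type motif, GGANTTTCC on either strand, was found in all 4 of these genes, in 8 of 32 chemokine ligand promoters (25%) and in 1.64% of all 27305 promoters. NF-κB is the transcription factor through which IL-1 and TNF switch these genes on. The 30-base windows around the match are shown on the strand of each gene with the motif in capitals, to let the near-identical flanks of CXCL1, CXCL2 and CXCL3 be compared with CXCL8.
CXCL1, match from -78, chr4:73869305-73869334, plus strand: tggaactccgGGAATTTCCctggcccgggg
CXCL2, match from -77, chr4:74099253-74099282, minus strand: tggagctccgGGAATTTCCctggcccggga
CXCL3, match from -78, chr4:74038748-74038777, minus strand: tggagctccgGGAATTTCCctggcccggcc
CXCL8, match from -91, chr4:73740468-73740497, plus strand: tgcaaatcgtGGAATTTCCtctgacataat

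CXCL8 also held an AP-1-type motif, TGANTCA, which 7.76% of all promoters and 21.9% of the 32 chemokine ligand promoters hold. It held a TATAAA box as well, found in 11.95% of all promoters and 46.9% of these ligand promoters. The CXCL8 window with the AP-1-type match in capitals, chr4:73740421-73740450 on the plus strand, begins upstream of the window above.
CXCL8, match from -137: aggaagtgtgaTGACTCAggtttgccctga
None of these motifs was found in the windows of CCL26 and CXCL12, and neither was a STAT6-type motif searched in its usual spacing, which 6.37% of all promoters and 3.13% of the ligand promoters hold. No match says only that these letters are absent from the window.

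The same genes carry AU-rich elements in their 3′ untranslated regions, the kind of sequence that ZFP36L1 binds. The core TATTTAT (gene strand only, overlaps counted) was searched in the longest annotated 3′ region of each gene in GENCODE 29. It was present in 31.1% of 19140 genes, in 36.1% of 12111 tested genes and in 14 of 44 chemokine ligands (31.8%). Of the 10 members, 5 had it: CXCL2 with 8 copies, CXCL1 and CXCL8 with 4 each, CXCL3 with 3 and CX3CL1 with 1. At least 2 copies were found in 13.1% of all genes. CCL26, ACKR3, CXCL12, CCL2 and CXCL16 had no copy of this core, and their 3′ regions were 160, 804, 3163, 473 and 977 bases long. The shorter ATTTA occurred 0, 2, 4, 1 and 1 times in them, and its share over all genes is not given. The densest 30-base window of each gene that has the element is shown with every copy in capitals.
CXCL1, chr4:73870674-73870703, plus strand: agtcttcTATTTATTTATTTATtcattagt
CXCL2, chr4:74097585-74097614, minus strand: ttcTATTTATTTATTTATTTATTTATttgt
CXCL3, chr4:74037081-74037110, minus strand: ttctactTATTTATgTATTTATttttgaaa
CXCL8, chr4:73743109-73743138, plus strand: aaccTATTTATTATTTATgTATTTATttaa
CX3CL1, chr16:57383320-57383349, plus strand: caatgaacaatTATTTATtaaatgcccagc
A match is a description of the sequence and shows no binding in these cells. Of the 5 members with the core, CXCL8 and CX3CL1 passed the filter on low values, and CXCL1, CXCL2 and CXCL3 did not.

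CXCL8 (interleukin-8; ENSG00000169429, chromosome 4, 73740506 to 73743716, plus strand) was at 7.79, 0.519 and 0.398 FPKM in wild type and 11.4, 0.282 and 2.65 FPKM in the clone. The clone was higher in replicates 1 and c and lower in b. The gap between the clone libraries of the second table, 9.40-fold, was larger than any gap between genotypes within a pair, the largest of which was 6.66-fold in replicate c. Reads were 35 and 23 in wild-type replicates b and c and 17 (95% exact Poisson interval 9.90 to 27.2) and 136 (114.1 to 160.9) in the clone. Counting error therefore did not span the gap between the clone libraries. In limma the difference was 0.55 with a standard error of 0.37 (adjusted p = 0.561). It was 0.11 without clone replicate c and 0.97 without clone replicate b, so its size rested on these libraries.

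CXCL3 (ENSG00000163734, chromosome 4, 74036589 to 74038807, minus strand) did not pass the filter. It was at 0.982, 0.334 and 0.408 FPKM in wild type and 0.736, 0.0680 and 0.519 FPKM in the clone. Clone replicate b, with 4 reads (95% exact Poisson interval 1.09 to 10.2), was the low library, and the other 3 of the second table had 22 to 26. It was also the low library for CXCL8. CXCL1 (ENSG00000163739, chromosome 4, 73869393 to 73871242, plus strand) and CXCL2 (ENSG00000081041, chromosome 4, 74097035 to 74099293, minus strand) were listed at 0 in all 6 libraries. A count of 0 allows up to 3 reads, which in the second table would have been 0.0780 to 0.103 FPKM for CXCL1 and 0.0674 to 0.0887 FPKM for CXCL2. These 3 genes are close copies: 4.81% of the 50-base stretches of CXCL1 and 6.01% of those of CXCL3 also occur in CXCL2, and 12.5% of those of CXCL2 occur in other genes. Reads from such stretches may have been dropped or split in counting. CXCL8 shares no 50-base stretch with another gene.

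CXCR1 and CXCR2, the neutrophil receptors for these ligands, were at or under 0.0524 FPKM. The upstream cytokines TNF and IL1B were at or under 0.181 FPKM in every library. IL1A, also below the filter, was at 0.649 FPKM in wild-type replicate c and at or under 0.127 FPKM in the other libraries. Of 18 listed genes of NF-κB and IL-1 or TNF signalling 14 were tested and none passed limma's test, while 2 were lower at an unadjusted p under 0.05. At that level 1115 of all 15001 tested genes were lower. There were 1 higher and 5 lower in all pairs, beside 17.8% and 18.6% of all tested genes. The list's median log2 difference was -0.28. The median difference was -0.52 in replicate 1, -0.26 in b and 0.05 in c. The most abundant were TNFRSF1A, the main TNF receptor (log2 difference -0.05, adjusted p = 0.917), and the NF-κB subunits RELA (-0.19, 0.629), NFKB2 (-0.34, 0.616) and NFKB1 (-0.23, 0.570). In log2(FPKM + 1) CXCL8 differed by 0.50, -0.24 and 1.38 in replicates 1, b and c, beside -0.36, -0.32 and 0.11 for RELA. The differences were -0.44, -0.16 and -0.10 for NFKB1 and -0.94, -0.40 and 0.33 for NFKB2.

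CCL2, the monocyte attractant, was the second most abundant member in the wild-type libraries of the second table and the most abundant in the first. CCL2 (ENSG00000108691, chromosome 17, 34255218 to 34257203, plus strand) was at 17.1, 6.41 and 10.4 FPKM in wild type and 12.8, 6.68 and 6.70 FPKM in the clone. It was lower in the clone in replicates 1 and c and nearly level in b. The clone libraries of the second table were nearly equal, whereas the wild-type libraries lay 1.62-fold apart, and the groups overlapped. The difference in limma was -0.30 with a standard error of 0.19 (adjusted p = 0.528). CCR2, its receptor, was at or under 0.0119 FPKM.

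Of the membrane-anchored ligands, CXCL16 was lower in the clone in every library and CX3CL1 had no common direction. CXCL16 (ENSG00000161921, chromosome 17, 4733526 to 4739922, minus strand), which binds CXCR6, was at 5.80, 5.79 and 5.34 FPKM in wild type and 3.81, 3.05 and 3.24 FPKM in the clone. Every clone library was below every wild-type library of its table, and replicates lay close together, within 1.08-fold in wild type and 1.06-fold in the clone in the second table. Reads there were 480 and 379 in wild type and 226 and 204 in the clone. The log2 difference was -0.61 with a standard error of 0.13, lower in 3 of 3 pairs, and it missed the threshold in limma (unadjusted p = 0.00322, adjusted p = 0.165). An unadjusted p under 0.05 was reached by 2043 of the 15001 genes.

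CXCL16 overlaps MED11, a Mediator subunit gene on the plus strand, by 85 bases, and 2.37% of its 50-base stretches occur in other genes. The labels do not state whether counting used strand, so reads of the overlap could be shared. MED11 was at 4.42, 4.24 and 2.61 FPKM in wild type and 2.64, 3.22 and 4.44 FPKM in the clone, so it was lower in replicates 1 and b and higher in c, unlike CXCL16. CXCR6, the receptor for CXCL16, was at 0.522, 0.107 and 0.230 FPKM in wild type and 0.612, 0.330 and 0.271 FPKM in the clone, below the filter.

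CX3CL1 (fractalkine; ENSG00000006210, chromosome 16, 57372458 to 57385048, plus strand), which tethers cells that carry CX3CR1, was at 1.45, 5.22 and 2.66 FPKM in wild type and 3.18, 6.15 and 0.711 FPKM in the clone. It was higher in the clone in replicates 1 and b and lower in c. Clone replicate c was 8.64-fold below clone replicate b, with 96 against 975 reads, and the wild-type libraries were 1.96-fold apart in the same order. The log2 difference in limma was -0.04 with a standard error of 0.57 (adjusted p = 0.980), and without clone replicate c it was 0.66 (adjusted p = 0.292). CX3CR1 was at or under 0.0576 FPKM. CX3CL1 and CXCL8 were the members with the widest spread between replicates, and clone replicate c was the low library for CX3CL1 and the high one of its table for CXCL8.

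The proteases that release CXCL16 and CX3CL1 from the membrane were present. ADAM10 was at 150.6, 11.6 and 11.3 FPKM in wild type and 187.4, 15.1 and 14.98 FPKM in the clone, higher in all pairs without passing the test (log2 difference 0.35, standard error 0.13, adjusted p = 0.341). ADAM17 was at 9.02 to 27.4 FPKM (-0.16, adjusted p = 0.692). DPP4, which trims chemokine N-termini, was at 5.90, 1.08 and 1.45 FPKM in wild type and 3.63, 0.226 and 0.434 FPKM in the clone (-0.70, standard error 0.15, adjusted p = 0.169). These 3 were named after their values were seen. Of 15 listed genes of shedding, trimming and glycosaminoglycan anchoring 14 were tested, with none past limma's threshold and a median log2 difference of 0.09. In all pairs 7 were higher and 1 lower, beside 17.8% and 18.6% of all tested genes. At an unadjusted p under 0.05, 3 were higher and 1 lower, beside 926 (CCL26 and ACKR3 left out) and 1115 of all 15001 tested genes. The most abundant were MMP2 (0.05, adjusted p = 0.975), SDC4 (0.76, 0.387), MMP14 (0.17, 0.811) and SDC1 (-0.03, 0.962).

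**Figure D2:**
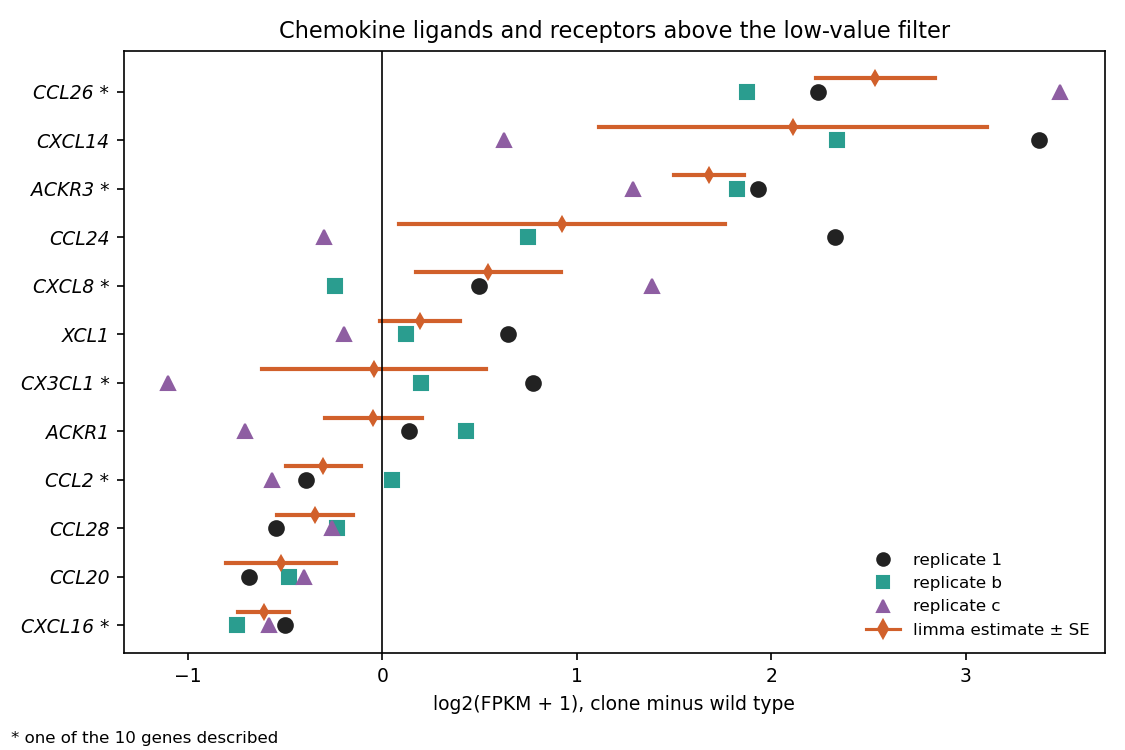
Difference clone minus wild type in log2(FPKM + 1) (horizontal axis) for the 12 chemokine ligands and receptors above the low-value filter; black, green and purple symbols are replicates 1, b and c, and the orange diamond with its bar is limma's estimate ± standard error. CCL26 and ACKR3, chosen for this difference, and CXCL14 lie right of 0 in all pairs, and CXCL16, CCL20 and CCL28 left of it, whereas CCL24 and CX3CL1 spread over both sides.

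The order of the members by level differed between the tables. In both wild-type libraries of the second table it ran ACKR3, CCL2, CXCL16, CX3CL1 and CCL26. The ranges of CCL2 and CXCL16 over those libraries did not overlap, nor did those of ACKR3 and CCL2, but in replicate b CX3CL1, at 5.22 FPKM, was closer to CXCL16, at 5.79 FPKM, than to its own level in replicate c. CX3CL1 and CCL26 overlapped across replicates, as did CXCL8 and CXCL3, which swapped places. In the first table it ran CCL2, CXCL8, CCL26, ACKR3, CXCL16, CX3CL1 and CXCL3, with CXCL8 17.0-fold above its second-table mean and ACKR3 at 0.459 of it, while the summed FPKM of the first table was also higher. With 1 library per genotype that table has no spread of its own. In the clone CCL26 and ACKR3 took the first and second places in all 3 libraries, in either order.

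The genotype difference was also tested for a change between the tables. The interaction of genotype and table was called in 0% of the 15001 genes by limma, with 429 genes at an unadjusted p under 0.05 and none of the 4 members tested in this way past the adjusted threshold. Their adjusted p was 0.992 for CXCL8, 0.965 for CCL2, and 0.948 for CXCL16 and CX3CL1. With 1 pair in the first table, a difference between the tables could go unseen.

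The family beyond the members holds 35 ligands, of which 5 passed the filter and 14 were listed at 0 in all libraries. With the 9 member ligands included, 10 of 44 passed and 16 were listed at 0. Of the 9 tested, CCL26 being left out, none passed limma's threshold, and CXCL16 alone had an unadjusted p under 0.05. The median log2 difference of the 10 ligands was 0.08, beside 0.01 over all tested genes. It includes CCL26, which was chosen for its rise, so nothing is read from it. CXCL14, a ligand found in skin and other epithelia, was the most abundant ligand in 4 of the 6 libraries. It was at 8.39, 54.1 and 14.7 FPKM in wild type and 96.5, 277.5 and 23.2 FPKM in the clone, higher in all pairs but with a spread that left it short of the threshold (2.11, standard error 0.996, adjusted p = 0.422). The 9 ligands described here made up 68.2%, 24.4% and 47.4% of the summed ligand FPKM in wild type and 37.6%, 11.0% and 62.1% in the clone. That share moved with CXCL14, which alone held 81.2% of the sum in clone replicate b and 29.4% in clone replicate c. CCL26 alone held 44.6% of it in clone replicate c. CCL28, a ligand of CCR10 and CCR3, was lower in all pairs (-0.34, adjusted p = 0.490), as was CCL20, a ligand of CCR6 (-0.52, adjusted p = 0.474).

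Of 23 receptors, only ACKR3 and ACKR1 passed the filter, and 6 were listed at 0 in all libraries. ACKR1, the other scavenging receptor measured above the filter, was at 0.865, 0.923 and 2.45 FPKM in wild type and 1.05, 1.59 and 1.12 FPKM in the clone (-0.05, adjusted p = 0.949). CCR10 was at 0.171 to 0.821 FPKM and CCRL2 at 0.193 to 0.412 FPKM, and neither passed the filter. The signalling receptors for the members were thus at low levels or at 0 in these cells, and ACKR3 was the receptor gene with the highest level in all 6 libraries.

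**Figure D3:**
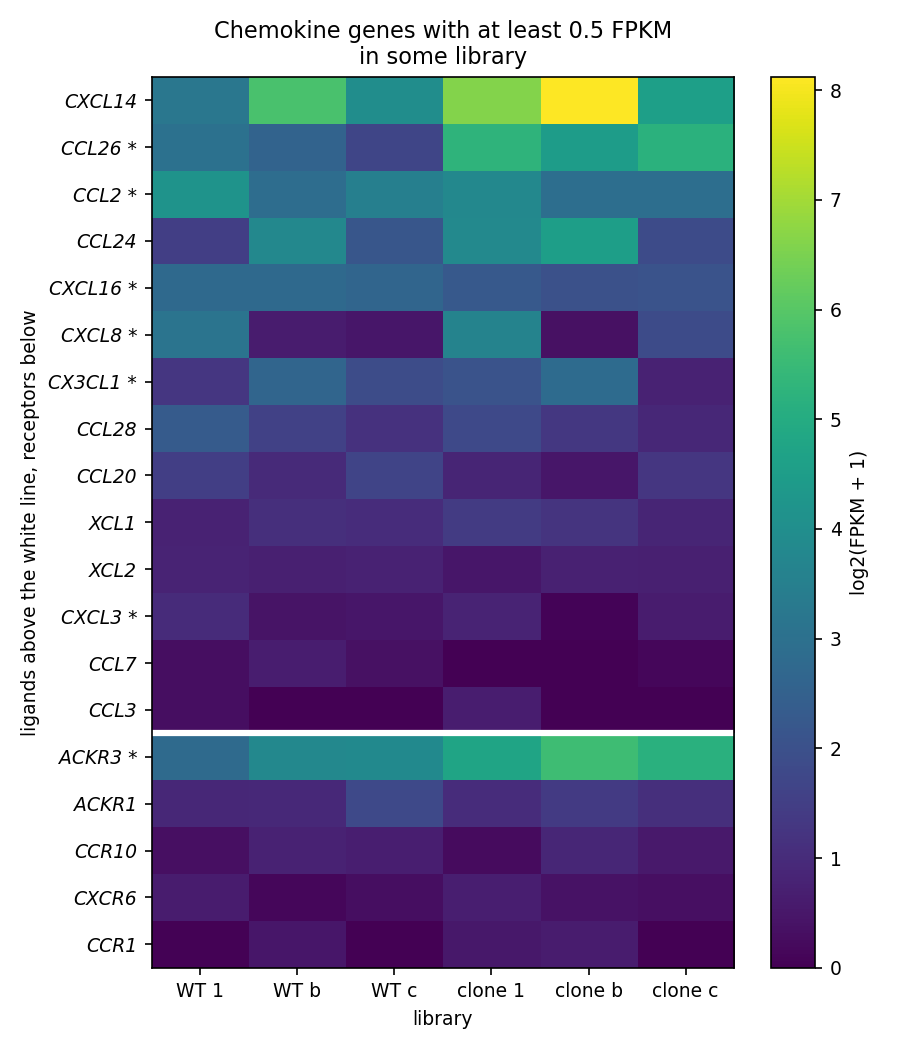
Level in log2(FPKM + 1) (colour scale) of chemokine ligands (above the white line) and receptors (below it) with at least 0.5 FPKM in some library, by library on the horizontal axis; WT is wild type and stars mark the genes described. CXCL14 reaches 277.5 FPKM in clone replicate b, and among the receptors ACKR3 stands alone above 2.45 FPKM; levels of replicate 1 are on the scale of the first table.

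Of the leukocyte, endothelial, epithelial and mesenchymal markers none passed limma's test. At an unadjusted p under 0.05, NCAM1, KRT8, COL1A1 and THY1 were higher and none was lower. At that level 926 (CCL26 and ACKR3 left out) of all 15001 tested genes were higher and 1115 lower. THY1 was named after its values were seen. The summed FPKM of the 12 leukocyte markers was 51.4, 7.35 and 7.84 in wild type and 89.8, 13.0 and 11.9 in the clone, nearly all of it NCAM1, a neural adhesion molecule (log2 difference 0.71, adjusted p = 0.144). Of 8 endothelial markers 2 were tested, with sums of 5.32, 3.24 and 2.56 FPKM in wild type and 6.14, 3.42 and 2.56 FPKM in the clone. Of 8 epithelial markers 5 were tested, with sums of 187.0, 79.0 and 62.0 FPKM in wild type and 230.9, 76.9 and 101.6 FPKM in the clone. The mesenchymal list summed to 1497, 553.8 and 723.9 FPKM in wild type and 2607, 782.8 and 609.7 FPKM in the clone, so it was higher in the clone in replicates 1 and b and lower in c, as CCL24 and CX3CL1 were. COL1A1, a type I collagen chain, was at 208.8, 82.1 and 183.8 FPKM in wild type and 898.8, 248.4 and 192.1 FPKM in the clone (1.25, adjusted p = 0.278). In bulk RNA fewer cells of a type and less RNA per cell cannot be told apart, and the part of these markers in the chemokine values was not tested.

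Genes whose pattern over the 6 libraries was most like that of 3 members were found by Pearson's r of log2(FPKM + 1), centred within each table, among 12151 protein-coding genes. These genes were the best of many compared over only 6 libraries, so r is given as a description. For CCL26 the closest were DCP1A (an mRNA decapping factor; r = 0.9995), RCN2 (0.9992) and SETD3 (0.9989). For ACKR3 they were PHF12 (0.9993), CHST14 (0.9990) and NCAM1 (0.9982), and for CXCL8 THAP4 (0.9956), MED7 (0.9942) and FAM200B (0.9918). The differences of these genes were smaller than those of the members they followed: DCP1A was higher in the clone by 0.33, 0.25 and 0.50 in log2(FPKM + 1), against 2.24, 1.88 and 3.48 for CCL26. Between members, r was 0.911 for CCL26 and ACKR3, -0.968 for ACKR3 and CXCL16, and -0.933 for CCL26 and CXCL16. CCL26 and ACKR3 were both chosen for their difference between genotypes, which these values of r largely restate. CX3CL1 and CXCL8 had r = -0.730, over the same 6 libraries.

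**Figure D4:**
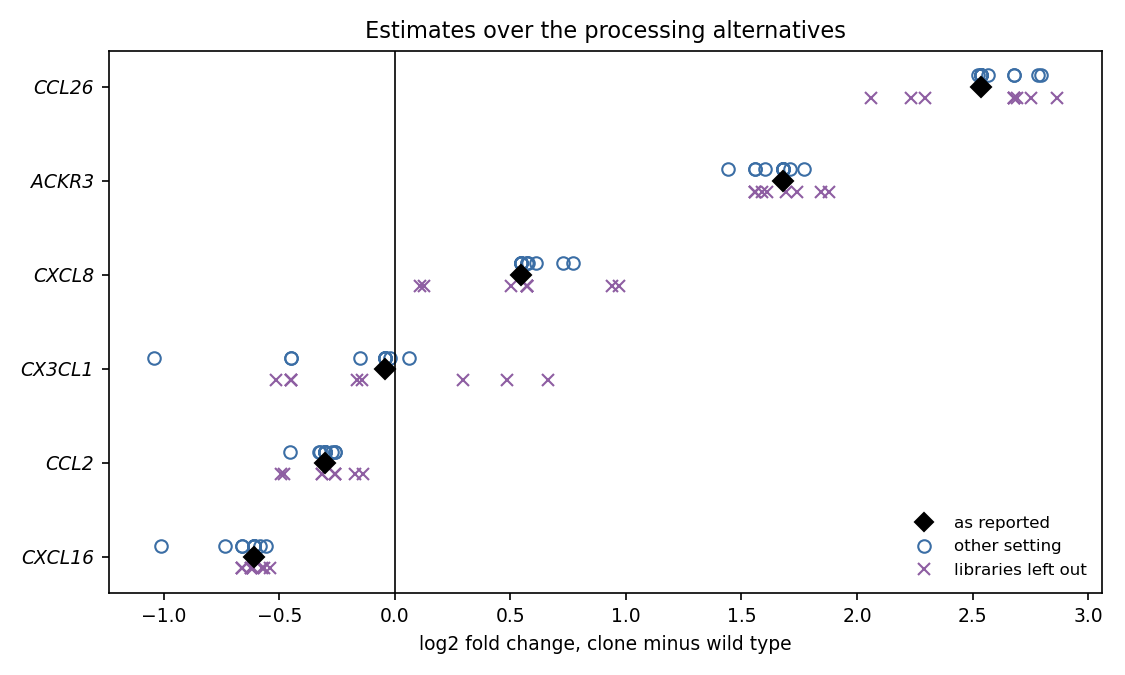
Log2 fold change clone minus wild type (horizontal axis) of the 6 members above the filter as reported (black diamonds), under other settings (blue circles) and with libraries left out (purple crosses). CCL26 ranged from 2.06 to 2.86, ACKR3 from 1.44 to 1.88 and CXCL16 from -1.01 to -0.54, whereas CX3CL1 fell on both sides of 0, from -1.04 to 0.66.

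Other processing kept the direction of 5 of the 6 members above the filter. CCL26 ranged from 2.06 to 2.86 and ACKR3 from 1.44 to 1.88 over 21 alternatives each. CXCL16 stayed negative in 20 of 20, from -1.01 to -0.54, and never passed the threshold (adjusted p = 0.0830 to 1 in limma). CCL2 stayed between -0.49 and -0.14 and CXCL8 between 0.11 and 0.97, and neither passed. CX3CL1 kept its sign in 16 of 20.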

How the data were processed

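Poly(A) RNA of U2OS cells was profiled in 6 libraries, 3 wild type and 3 of clone G3C2. Expression values were deposited by the authors as FPKM in separate tables for replicate 1 and for replicates b and c, per the file headers. HISAT2, CASAVA and the build GRCh38.p12 are named in the submitters' processing notes. Counting, annotation and strand use are not given in the sources used here. Groups and replicate labels came from the sample titles. The series text speaks of different occasions without tying libraries to them, so p-values rest on library-to-library spread that may be partly technical.

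Symbols were mapped with GENCODE 29, and 56868 of the 56982 identifiers in both tables matched it. limma 3.58.1 (R 4.3.3) was fitted to log2(FPKM + 1) with genotype and table as terms, a trended prior variance and Benjamini-Hochberg adjustment over 15001 genes at 0.05. A gene needed 1 FPKM in at least 2 libraries. Fold changes on this scale understate changes of low genes. The fit was tested on simulated data. Members and gene lists were chosen with earlier results of these data known. From each list the genes past the threshold, those differing 2-fold in all pairs and up to 4 others with the highest mean FPKM were named. Genes outside that rule were named after their values were seen, among them cognate receptors and upstream cytokines.

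With exon lengths from GENCODE 29, 97.3% to 97.4% of the second table's values above 0 came out as whole reads within 0.02 reads. For the first table the share was 31.6% to 33.7%, and its reads were not recovered. limma-voom on the recovered reads called 0 genes at the same threshold. Same-labelled libraries deviated together from their group means (replicate 1 r = 0.93, b 0.80, c 0.60). These means span both tables, so separate scaling of the tables can give the same pattern. Within the second table r was -0.17, which shows no pairing of b and c by label. The pairs named in the text follow the labels only, and the main fit did not use them. Python 3.11.15 with pandas 2.3.3 was used for the tables and sequence searches.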

Additional observations from a re-analysis of the deposited data

How the results depend on the processing

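The counts of called genes depended on the processing. Against 3 genes higher and 4 lower as reported, 0 were higher and 0 lower in each of 5 settings: no filter on low values, no term for table, replicates b and c fitted alone, these fitted with the replicate block, and limma-voom on recovered reads. The replicate block on all libraries gave 0 higher and 1 lower, a mean FPKM of at least 5 gave 2 and 1, and equal medians gave 5 and 4. Leaving out libraries gave 0 to 448 higher and 0 to 457 lower, with both highest counts when the c pair was left out. These fits differ in design, since without the b or c pair each table keeps only 1 pair. A pairing crossed within the second table, added after the data were seen, gave 3 higher and 5 lower.

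No chemokine system gene was called lower in any setting. CCL26 and ACKR3 were chosen by this contrast, so their calls add no support and are left out here. Of the other chemokine system genes, 0 were called higher as reported. Without replicate b, CXCL14 was called (log2 difference 2.0, adjusted p = 0.0143 in limma). Without replicate c, CCL24 (1.54, adjusted p = 0.0386 in limma) and CXCL14 (2.86, adjusted p = 0.00142) were called. Both fits keep only 1 pair in each table, so their spread is poorly known. No other setting called such a gene higher. The replicate block changed no member's call. ACKR3 ranked 1 among the members by wild-type level in the second table and 4 in the first. The CX3CL1 difference, -0.04 as reported, was 0.061 with quantile normalization and between -0.51 and 0.66 with libraries left out. It was positive without wild-type replicate b (0.29), clone replicate c (0.66) or replicate c (0.49). The cause was not tested. The interaction with table called 0 genes with a pseudocount of 1 and of 0.1. CXCL8, CXCL16 and CX3CL1 were not fitted under the filter at a mean of 5 FPKM. Scaling moved the median of all genes by under 0.1 in log2. With 3 libraries a group, 1 clone and no recovered depth in the first table, small differences of low genes such as CXCL3 cannot be seen.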

Other observations

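Replicates b and c differed in several ligands in the same order in both genotypes. The genes were picked with their values in view, and no test was made. CXCL14 was at 54.1 FPKM in b and 14.7 FPKM in c in wild type, and at 277.5 and 23.2 FPKM in the clone. CCL24 was at 12.9 and 3.51 FPKM in wild type and 22.4 and 2.66 FPKM in the clone. CX3CL1 was at 5.22 and 2.66 FPKM in wild type and 6.15 and 0.711 FPKM in the clone. KRT14, a basal epithelial keratin, was at 3.84 and 0.276 FPKM in wild type and 6.30 and 0.194 FPKM in the clone. For each of these genes the gap between b and c was wider in the clone than in wild type. MMP2, a gelatinase that also cleaves chemokines, was higher in c than in b in wild type, at 113.4 against 97.9 FPKM, and lower in c in the clone, at 39.0 against 152.4 FPKM. CCL20 ran the other way, at 0.951 in b and 2.20 FPKM in c in wild type and 0.402 and 1.42 FPKM in the clone. CCL26 and CXCL8 did not keep their order, being higher in b in wild type and higher in c in the clone. Over all tested genes, deviations of the b libraries from their genotype means within the second table had r = -0.17. A shared order was thus not the general pattern.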
